A study of Mus musculus with 6 samples.

Results

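The inflammasome and gasdermin genes followed here are *Gsdmc*, *Gsdmc2*, *Gsdmc4*, *Gsdmd*, *Casp1*, *Casp4*, *Il18*, *Nlrp3*, *Nlrp6* and *Aim2*, 10 of the 54167 genes in the expression table, chosen by gene name. Their RNA was measured by RNA-seq in 3 bulk colon tumor samples of *Trp53*fl/fl mice and 3 of *VP* mice, each called a tumor here. *Trp53*fl/fl mice carry loxP-flanked (floxed) alleles of the p53 gene in every cell and no Cre, and served as the p53-retaining control. *VP* mice carry the same floxed alleles together with *Pvillin-Cre*, a Cre recombinase under the villin promoter, which is active in the intestinal epithelium. Stromal, endothelial and immune cells of a *VP* tumor are outside that promoter's reach and keep the gene. By the labels' strain entry all tumors were from C57BL/6J mice. The animals were male, entered the protocol at 8 weeks of age, received the carcinogen azoxymethane (AOM) at 10 mg per kg and cycles of 2.5% dextran sulfate sodium (DSS) in the drinking water, and were examined on day 98. No tumor without AOM and DSS and no normal colon was compared here, so every value describes tumor tissue after a carcinogen and colitis.

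Inflammasomes are protein platforms that form in the cytosol when a sensor such as Nlrp3, Nlrp6 or Aim2 meets a microbial or damage signal. They activate caspase-1, which matures the cytokines interleukin-1 beta and interleukin-18 and cuts gasdermin D, whose freed end makes pores in the plasma membrane. Mouse *Casp4* encodes caspase-11, which senses bacterial lipopolysaccharide inside the cell and cuts gasdermin D without caspase-1. In the gut, epithelial cells themselves make interleukin-18, gasdermin D and Nlrp6, and the gasdermin C genes are a gut-enriched cluster whose expression type 2 cytokines are known to raise. RNA levels say nothing of whether any of these proteins was cut or active.

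*Casp1* and *Casp4* are neighbors on mouse chromosome 9, separated by 1562 bases, and read in the same direction. Their upstream stretches are printed because these adjacent genes encode the caspases that cut gasdermin D and stood at different levels in every tumor, given below. Both stretches come from RefSeq (GRCm38.p6, plus strand, 5′ to 3′) and end before the first annotated base of the gene. That of *Casp1* is chr9:5298267-5298516 and that of *Casp4* is chr9:5308599-5308827, from the first of its listed starts. Capitals mark matches to the NF-kB consensus, the binding motif of a transcription factor that drives inflammatory genes.
Casp1: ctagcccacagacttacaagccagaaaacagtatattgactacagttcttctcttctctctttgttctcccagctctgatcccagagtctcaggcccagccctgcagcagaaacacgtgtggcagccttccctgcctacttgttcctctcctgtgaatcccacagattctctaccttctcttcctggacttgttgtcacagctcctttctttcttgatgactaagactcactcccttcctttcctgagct
Casp4: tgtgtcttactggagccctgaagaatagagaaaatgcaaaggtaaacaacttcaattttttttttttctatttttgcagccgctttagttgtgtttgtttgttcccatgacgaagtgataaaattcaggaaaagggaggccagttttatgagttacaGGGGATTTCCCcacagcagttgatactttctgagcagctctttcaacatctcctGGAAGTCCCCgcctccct
The *Casp4* stretch held 2 runs in capitals, from 3 matches of which a pair overlapped, and the *Casp1* stretch none. Among the 32851 mouse promoter windows of 250 bases searched the same way, 7.25% held the NF-kB consensus on either strand. The core of the interferon-stimulated response element (in 2.98% of the windows) and the gamma-activated site (TTCNNNGAA, in 7.02%) were found in neither stretch. Of the other members in that table, *Nlrp3* held 1 NF-kB match and 1 p53 half-site (in 7.13% of the windows) upstream of one of its listed starts, *Nlrp6* held 1 AP-1 motif (TGANTCA, in 6.75%), and *Il18* and *Aim2* held none of the motifs searched. These matches are letters in a window and were not measured as binding in any tumor.

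Values are TPM, transcript abundances scaled by transcript length and to a fixed total for each tumor, which can be compared between genes. Since that scaling removes the library size, the read depth behind them is unknown, and n = 3 tumors of each genotype sets the precision. Nothing stated whether tumors came from separate litters or were pooled, so p-values measure only the spread between these tumors. The deleted gene checked the labels first. *Trp53* was at 125, 99.3 and 147 TPM in *Trp53*fl/fl tumors against 38.5, 32.8 and 27.8 TPM in *VP* tumors, a log2 difference of -1.87 ± 0.18 (SE; limma, adjusted p = 0.0207). RNA of *Trp53* thus remained in every *VP* tumor, and the call was lost without *Trp53*fl/fl replicate 1 or 3 or *VP* replicate 1 or 2 (limma, adjusted p between 0.0553 and 0.0986). The 12 epithelial marker genes summed to between 10485 and 10808 TPM in *Trp53*fl/fl tumors and between 11845 and 12857 TPM in *VP* tumors, and the 14 neutrophil marker genes to between 418 and 749 TPM and between 1254 and 2098 TPM, so both sums were higher in all *VP* tumors. Of the 12 epithelial markers, 3 (*Krt19*, *Cldn7* and *Lgals4*) were higher in *VP* tumors without overlap, and the others overlapped. *Epcam*, for 1, had means of 1372 TPM in *Trp53*fl/fl and 1366 TPM in *VP* tumors. A summed level follows its most abundant genes, so it is not a measure of epithelial content alone.

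The members spanned a wide range of RNA levels in these tumors, and 9 of the 10 reached the minimum of 1 TPM in at least 3 tumors that a test required. By mean TPM over the 6 tumors, *Gsdmc4* came first at 197, followed by *Gsdmd* at 134, *Gsdmc2* at 109, *Il18* at 84.8, *Aim2* at 57.2, *Casp1* at 46.2, *Casp4* at 24.9, *Nlrp6* at 19.5, *Nlrp3* at 3.27 and *Gsdmc* at 0.0467 TPM. *Gsdmc4* stood above 95.2% of the genes tested and *Nlrp3* above 17.1%. Tumor ranges of *Gsdmc4*, *Gsdmd* and *Gsdmc2* overlapped, as did those of *Gsdmc2* and *Il18*, of *Aim2* and *Casp1*, and of *Casp4* and *Nlrp6*, so these neighbors in the order were not separated by their ranges. Compared within each tumor, *Gsdmc4* lay above *Gsdmc2* and *Aim2* above *Casp1* in all 6 tumors. The ranges parted between *Il18* (69.1 to 97.7 TPM) and *Aim2* (50.7 to 68.3 TPM), between *Casp1* (32.4 to 64.1 TPM) and *Casp4* (19.9 to 30.9 TPM), and on either side of *Nlrp3* (1.95 to 5.03 TPM). Among the sensors, then, *Aim2* RNA lay above that of *Nlrp6* and *Nlrp6* above that of *Nlrp3* in all 6 tumors.

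The question put to these genes was whether their RNA differed between tumors with and without epithelial p53. None of the 9 tested members differed at an adjusted p below 0.05 (limma on log2(TPM + 1), Benjamini-Hochberg adjustment over all 15117 genes tested), and 0 of 9 passed at an unadjusted p below 0.05. The background was low as well: 25 genes, 0.165% of those tested, passed the adjusted threshold in either direction (12 higher in *VP* tumors, 0.0794%, and 13 lower, 0.086%), and at the unadjusted threshold 4.51% were higher and 8.0% lower in *VP* tumors. The point estimates were above 0 for 5 members and below 0 for 4, with a median log2 difference of 0.02 beside a median of -0.07 over all genes tested. With values centered on the epithelial markers the median over all genes was -0.25, and 3 members (*Gsdmd*, *Nlrp3*, *Nlrp6*) had estimates above 0 and 6 below. In 1 of the 9 members, *Gsdmd*, every *VP* tumor lay above every *Trp53*fl/fl tumor, where 6.03% of all tested genes showed that arrangement and 13.3% the opposite one. A member that misses the threshold is not shown to be equal in the genotypes, and the intervals below give the differences these 6 tumors leave possible.

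**Figure D1:**
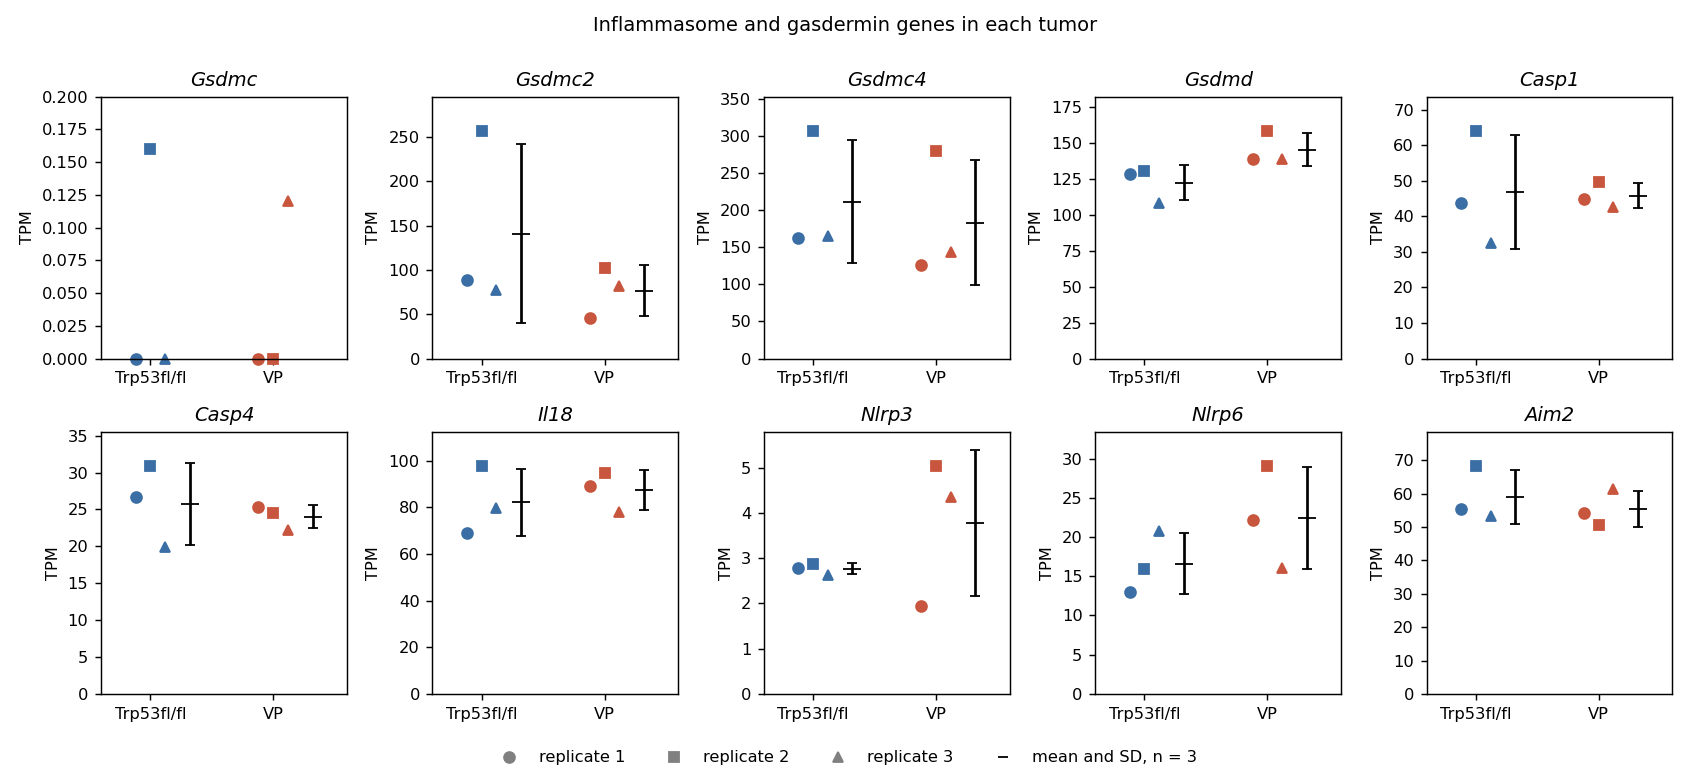
TPM of each of the 10 genes (vertical axes, linear, 1 scale per gene) in the 3 *Trp53*fl/fl tumors (blue) and the 3 *VP* tumors (red), with symbols for the replicate number and, except for *Gsdmc*, the mean and SD in black. *Gsdmd* is the gene whose genotypes do not overlap, and the high *Gsdmc2* value of 257 TPM belongs to *Trp53*fl/fl replicate 2.

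The executioner *Gsdmd*, which encodes the pore-forming gasdermin D, stood at 129, 131 and 108 TPM in *Trp53*fl/fl tumors against 139, 159 and 139 TPM in *VP* tumors. All *VP* tumors were thus above all controls, with means of 123 ± 12.4 and 145 ± 11.5 TPM (SD, n = 3). The log2 difference was 0.25 ± 0.12 (SE) with a 95% interval from -0.03 to 0.52, a fold on the log2(TPM + 1) scale between 0.979 and 1.44, and it did not pass the test (limma, unadjusted p = 0.0741, adjusted p = 0.435). Expressed per 1000 TPM of the 12 epithelial markers, a scale added after the values had been seen, *Gsdmd* was at 12.3, 12.1 and 10.1 in *Trp53*fl/fl tumors, compared with 11.7, 12.3 and 10.8 in *VP* tumors. On that scale the genotypes overlapped, and the genotypes separated for 1.79% of all tested genes with *VP* above and for 35.8% with *VP* below. In bulk tumor RNA, fewer cells of a type and less RNA per cell cannot be told apart.

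The gasdermin C genes *Gsdmc2* and *Gsdmc4* varied widely between tumors of 1 genotype, and neither passed the test. *Gsdmc4* was at 162, 307 and 165 TPM in *Trp53*fl/fl tumors and 127, 279.95 and 144 TPM in *VP* tumors. In each genotype replicate 2 was the high tumor, and the log2 difference of -0.23 had an interval from -1.07 to 0.62 (limma, adjusted p = 0.806). *Gsdmc2* was at 88.6, 257 and 77.4 TPM in *Trp53*fl/fl tumors against 45.9, 102 and 81.8 TPM in *VP* tumors. The tumor with 257 TPM stood far above the other 5, and the log2 difference of -0.73 had an interval from -1.88 to 0.42 (limma, adjusted p = 0.551). Without that tumor the log2 difference was smaller for *Gsdmc2*, at -0.19 (-0.40 without *VP* replicate 1), and crossed to 0.08 for *Gsdmc4*. Leaving out other tumors widened both, to as far as -1.05 for *Gsdmc2* (without *Trp53*fl/fl replicate 3) and -0.58 for *Gsdmc4* (without *VP* replicate 2). *Gsdmc* itself, the first gene of the cluster, was listed at 0 in 4 tumors, at 0.16 TPM in *Trp53*fl/fl replicate 2 and at 0.12 TPM in *VP* replicate 3, and could not be tested.

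Summed TPM of *Gsdmc*, *Gsdmc2* and *Gsdmc4* was 251, 565 and 242 in the *Trp53*fl/fl tumors and 173, 382 and 226 in the *VP* tumors. The genotypes overlapped, with a log2 difference of -0.40 between group means of log values. That difference rested on single tumors, being -0.0019 without *Trp53*fl/fl replicate 2, -0.14 without *VP* replicate 1, -0.59 and -0.61 without *Trp53*fl/fl replicates 1 and 3, and -0.72 without *VP* replicate 2. *Gsdmc2* and *Gsdmc4* made up between 94.8% and 97.6% of the TPM of the gasdermin C copies in every tumor once *Gsdmc3* was counted. *Gsdmc3*, at 9.17, 14.0 and 12.7 TPM in *Trp53*fl/fl tumors and 6.0, 12.4 and 12.4 TPM in *VP* tumors, was a minor copy and did not differ by the test (log2 difference -0.25, limma, adjusted p = 0.735). The ratio of *Gsdmc4* to *Gsdmc2* was 1.83, 1.20 and 2.13 in *Trp53*fl/fl tumors and 2.76, 2.74 and 1.76 in *VP* tumors. The high *Trp53*fl/fl tumor had the lowest ratio, so its excess lay more in *Gsdmc2* than in *Gsdmc4*.

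The split between these copies is uncertain. Their longest annotated transcripts (GENCODE M21) were 94.3% identical between *Gsdmc2* and *Gsdmc4* and 97.0% between *Gsdmc2* and *Gsdmc3*, whereas *Gsdmc* was between 85.5% and 89.2% identical to the others. Of all 150-base windows, the length of 1 read, 16.6% of *Gsdmc2* and 8.83% of *Gsdmc4* occurred unaltered in another copy, and 53.8% and 38.3% did so when up to 3 mismatches were allowed. A sum over the copies does not depend on how reads were split between those it holds, and with *Gsdmc3* added its log2 difference was also -0.40. The low *Gsdmc* shared 3.15% of its windows unaltered, the smallest share of the 4 copies.

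**Figure D2:**
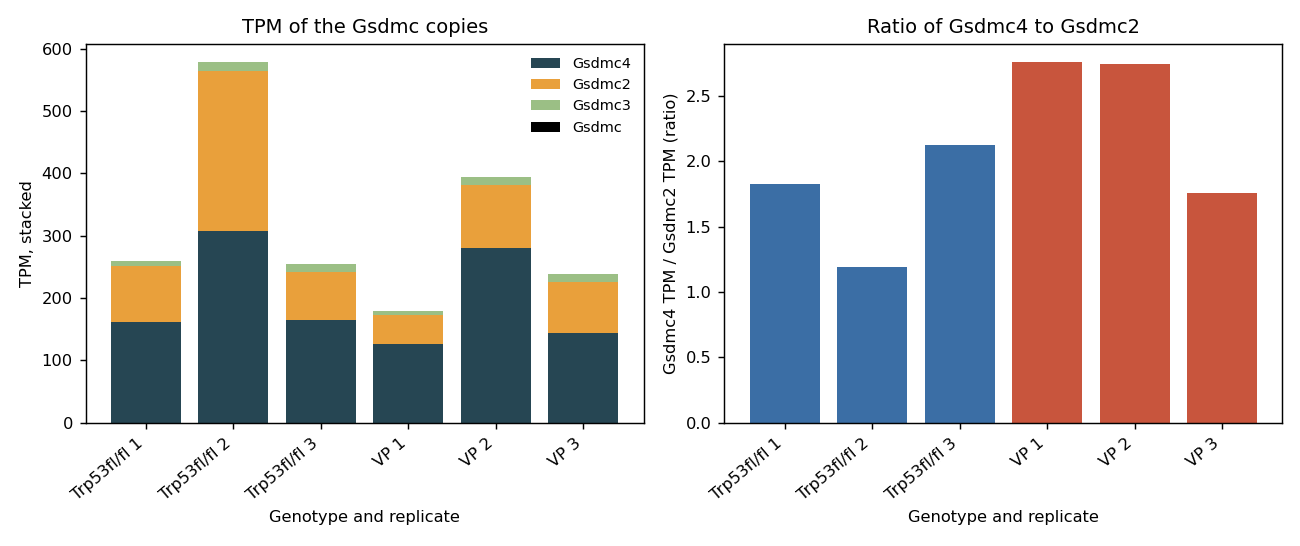
Left, stacked TPM of the 4 gasdermin C copies in each tumor; right, the ratio of *Gsdmc4* TPM to *Gsdmc2* TPM, with *Trp53*fl/fl tumors in blue and *VP* tumors in red. *Trp53*fl/fl replicate 2 has the highest stack and the lowest ratio, 1.20, and *Gsdmc* is too low to be seen.

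Genes whose profile lay closest to the summed gasdermin C TPM were sought among the 11329 genes with a mean of at least 5 TPM, by the root mean square difference of centered log2 values over the 6 tumors. The closest were *Gvin-ps1* (0.219), *Atf7ip* (0.228), *Igip* (0.237), *Rhox5* (0.237) and *Gvin-ps3* (0.246), and *Gsdmc3* ranked 259th. *Gvin-ps1*, a pseudogene of the interferon-inducible very large GTPases, was at 11.97, 23.5 and 9.38 TPM in *Trp53*fl/fl tumors, compared with 10.2, 17.0 and 8.45 TPM in *VP* tumors, also with replicate 2 highest in each genotype. A second gene entry named *Gvin-ps1* was not among the closest. Per 1000 TPM of epithelial markers it was at 0.894, 1.10 and 0.548 in *Trp53*fl/fl tumors and 0.451, 0.775 and 0.390 in *VP* tumors. The search over 6 points is a description. The tuft cell genes *Dclk1*, *Trpm5* and *Pou2f3* and the type 2 cytokine genes *Il25*, *Il4* and *Il13* were low, summing to between 4.40 and 4.80 TPM in *Trp53*fl/fl tumors and to between 3.31 and 6.38 TPM in *VP* tumors. With the receptor genes *Il4ra* and *Il13ra1*, which made up most of the level of that list, the sums were 68.2 to 90.8 and 83.9 to 97.4 TPM. *Il25* and *Il13* were at 0 in some tumors, and the part of these genes in the gasdermin C levels was not tested.

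The inflammatory caspases overlapped between the genotypes, and *Casp1* lay above *Casp4* in every tumor. *Casp1*, encoding the caspase that inflammasomes activate, was at 43.8, 64.1 and 32.4 TPM in *Trp53*fl/fl tumors and 44.9, 49.6 and 42.7 TPM in *VP* tumors. The *VP* tumors lay inside the control range, and the log2 difference of 0.02 had an interval from -0.53 to 0.57 (limma, adjusted p = 0.978). *Casp4* was at 26.6, 30.9 and 19.9 TPM in *Trp53*fl/fl tumors against 25.3, 24.5 and 22.2 TPM in *VP* tumors. These *VP* tumors, too, lay inside the control range, with a log2 difference of -0.08 and an interval from -0.48 to 0.33 (limma, adjusted p = 0.862). For both genes the highest of the 6 tumors was *Trp53*fl/fl replicate 2 and the lowest *Trp53*fl/fl replicate 3, and *VP* replicate 3 was the lowest *VP* tumor, while the highest *VP* tumor was replicate 2 for *Casp1* and replicate 1 for *Casp4*. For both genes the SD was larger in *Trp53*fl/fl tumors (16.0 TPM for *Casp1*, 5.55 TPM for *Casp4*) than in *VP* tumors (3.50 and 1.6 TPM), a difference that was not tested.

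*Il18*, the cytokine that caspase-1 matures and that colon epithelium makes at rest, was at 69.1, 97.7 and 79.9 TPM in *Trp53*fl/fl tumors, compared with 89.3, 94.95 and 78.1 TPM in *VP* tumors. The genotypes overlapped throughout, with means of 82.2 ± 14.5 and 87.4 ± 8.59 TPM (SD, n = 3). Its log2 difference of 0.10 had an interval from -0.26 to 0.45 (limma, adjusted p = 0.802), which leaves a fold between 0.836 and 1.37.

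Of the sensors, *Nlrp6*, known from intestinal epithelium, was at 13.1, 16.0 and 20.8 TPM in *Trp53*fl/fl tumors and 22.2, 29.04 and 16.1 TPM in *VP* tumors. *VP* replicates 1 and 2 lay above all controls and *VP* replicate 3 inside their range, and the log2 difference of 0.40 had an interval from -0.18 to 0.98 (limma, adjusted p = 0.520). It was 0.20 without *VP* replicate 2, 0.25 without *Trp53*fl/fl replicate 1 and 0.61 without *VP* replicate 3. *Nlrp3*, known mainly from myeloid cells, was at 2.78, 2.87 and 2.63 TPM in *Trp53*fl/fl tumors against 1.95, 5.03 and 4.34 TPM in *VP* tumors. The controls were nearly level while the *VP* tumors fell on both sides of them, and the log2 difference of 0.28 had an interval from -0.38 to 0.94 (limma, adjusted p = 0.684). Macrophage and monocyte markers summed to 1363, 1305 and 1408 TPM in *Trp53*fl/fl tumors and to 1167, 1610 and 1604.5 TPM in *VP* tumors. In *VP* tumors this sum had the same order as *Nlrp3*, and in *Trp53*fl/fl tumors, where *Nlrp3* was nearly level, the reverse order. The sum leaned on its most abundant gene, *Lyz2*, at 753, 722 and 775 TPM in *Trp53*fl/fl tumors and 515, 783 and 787 TPM in *VP* tumors. Single markers differed in order. In *VP* tumors *Cd14* (134, 228 and 192 TPM) had that of *Nlrp3*, and *Mrc1* (14.0, 7.48 and 7.03 TPM) did not. In both genotypes the part of macrophages and monocytes in the *Nlrp3* level was not tested.

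*Aim2*, the sensor of DNA in the cytosol, was at 55.4, 68.3 and 53.2 TPM in *Trp53*fl/fl tumors, compared with 54.2, 50.7 and 61.5 TPM in *VP* tumors. It had the narrowest spread of the tested members, the highest tumor being 1.35 times the lowest, and a log2 difference of -0.08 with an interval from -0.40 to 0.23 (limma, adjusted p = 0.810). Per 1000 TPM of epithelial markers, *Aim2* was at 5.29, 6.32 and 4.95 in *Trp53*fl/fl tumors and 4.58, 3.94 and 4.78 in *VP* tumors. On that scale the *VP* tumors lay below all controls, as they did for 35.8% of all tested genes, and the difference did not pass the test with values centered on the epithelial markers (log2 difference -0.26, limma, adjusted p = 0.307).

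**Figure D3:**
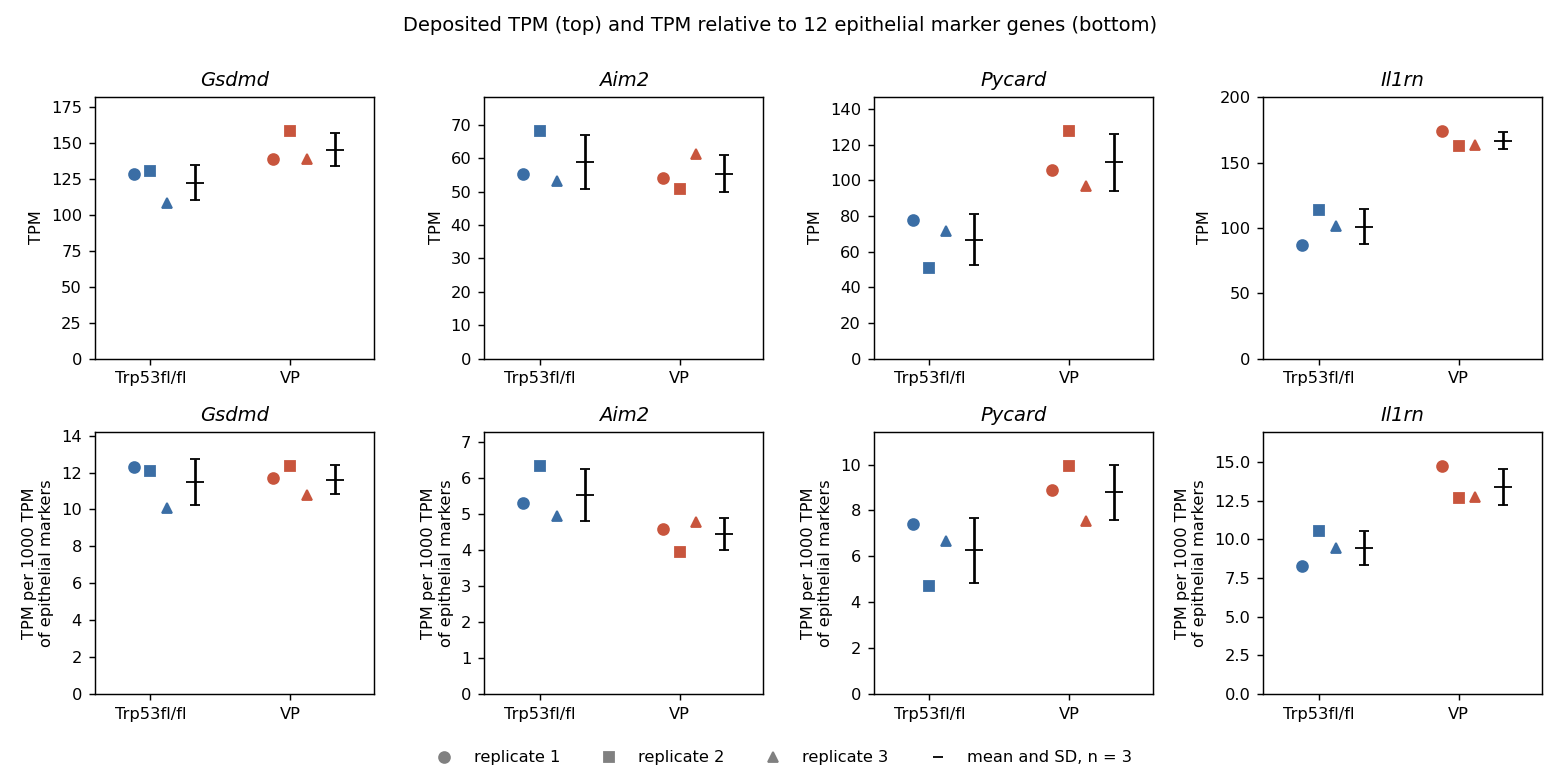
*Gsdmd*, *Aim2*, *Pycard* and *Il1rn* as deposited TPM (top row) and per 1000 TPM of 12 epithelial markers (bottom row) in *Trp53*fl/fl tumors (blue) and *VP* tumors (red), with the mean and SD of 3 tumors in black. The separation of the genotypes for *Gsdmd* is seen in the top row and not in the bottom row, that for *Aim2* in the bottom row and not in the top row, and that for *Pycard* and *Il1rn* in both.

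Within each genotype, replicate 2 was the highest tumor for most of the tested members. *Trp53*fl/fl replicate 2 was the highest of its genotype for 8 of the 9 tested members, *Nlrp6* being the exception, against 38.3% of all tested genes. *Trp53*fl/fl replicate 3 was the lowest for 6 of 9, against 35.2% of all tested genes. Among *VP* tumors, replicate 2 was the highest for 7 of 9, against 33.2% of all tested genes. Some of these ranks rested on near-ties. In *Trp53*fl/fl replicates 2 and 1, *Gsdmd* was at 131 and 129 TPM and *Nlrp3* at 2.87 and 2.78 TPM. These counts describe 6 tumors and members that were not drawn independently of one another, and no test compared tumors with genotypes. The highest tumor exceeded the lowest by a ratio of 5.61 for *Gsdmc2*, 2.58 for *Nlrp3*, 2.43 for *Gsdmc4*, 2.23 for *Nlrp6* and 1.98 for *Casp1*, and by 1.35 to 1.55 for *Casp4*, *Gsdmd*, *Il18* and *Aim2*.

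The rest of the pathway was read from 47 further genes in 5 lists, of which 39 were tested. None passed the adjusted threshold (0 of 39, limma). At an unadjusted p below 0.05 (limma), 7 were higher and 1 lower in *VP* tumors, beside 4.51% and 8.0% of all tested genes. In 8 higher and 1 lower the genotypes did not overlap, beside 6.03% and 13.3% of all tested genes. The 1 lower gene in both counts was *Nlrp1b*, which was under 1 TPM in every *VP* tumor and passed the filter only through the *Trp53*fl/fl tumors. Their median log2 difference was 0.06 beside -0.07 over all genes. By list, the genotypes did not overlap in 0 of 4 other gasdermins, in 1 higher and 1 lower of 9 other sensors, in 1 of 5 adaptor and caspase genes, in 4 of 8 cytokine and receptor genes and in 2 of 13 modulators, all of the last 7 higher in *VP* tumors.

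*Pycard* encodes ASC, the adaptor that joins Nlrp3, Nlrp6 and Aim2 to caspase-1. It was at 77.7, 50.8 and 71.6 TPM in *Trp53*fl/fl tumors against 105, 128 and 96.8 TPM in *VP* tumors. All *VP* tumors lay above all controls, with a log2 difference of 0.73 ± 0.19 (SE; limma, unadjusted p = 0.00561, adjusted p = 0.278). Per 1000 TPM of epithelial markers it was at 7.41, 4.70 and 6.65 against 8.90, 9.93 and 7.53, without overlap, where 1.79% of all tested genes were higher in *VP* tumors without overlap. Its log2 difference lay inside the intervals of *Nlrp3* and *Nlrp6* and above that of *Aim2* (-0.40 to 0.23), and no test compared the adaptor with the sensors. *Casp8*, the initiator caspase of death receptors, differed by 0.02 on the log2 scale (limma, adjusted p = 0.942).

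Of the cytokine genes, *Il1rn*, the interleukin-1 receptor antagonist, was at 86.9, 114 and 102 TPM in *Trp53*fl/fl tumors and 174, 163 and 163 TPM in *VP* tumors. It had the smallest adjusted p among the pathway genes (log2 difference 0.73 ± 0.12, SE; limma, adjusted p = 0.119). *Il18bp*, the secreted protein that binds and blocks interleukin-18, was at 6.46, 5.69 and 5.52 TPM in *Trp53*fl/fl tumors against 9.03, 17.7 and 11.5 TPM in *VP* tumors. Here, too, the genotypes did not overlap (log2 difference 0.95, limma, adjusted p = 0.269), beside *Il18* itself, which overlapped. *Il1a*, encoding interleukin-1 alpha, was at 7.26, 4.34 and 4.61 TPM in *Trp53*fl/fl tumors, compared with 8.85, 14.1 and 12.6 TPM in *VP* tumors (log2 difference 1.01, limma, adjusted p = 0.262). *Il1b*, encoding the other cytokine that caspase-1 matures, was at 51.4, 37.0 and 63.6 TPM in *Trp53*fl/fl tumors and 39.1, 136 and 134 TPM in *VP* tumors. *VP* replicate 1 lay among the controls and the other *VP* tumors far above them, and the log2 difference of 0.84 had an interval from -0.28 to 1.97 (limma, adjusted p = 0.494). *Il1r2*, the decoy receptor, was at 6.06 to 7.22 TPM in *Trp53*fl/fl tumors against 24.4, 9.01 and 8.32 TPM in *VP* tumors (log2 difference 0.82, limma, adjusted p = 0.416). Without *VP* replicate 1 the *Il1r2* difference was 0.36 (1.08 without *VP* replicate 3), and without 1 *VP* tumor that of *Il1b* ranged from 0.54 to 1.43. *Il1r2* also stands in the neutrophil marker list, whose summed level was higher in all *VP* tumors. In 11 of the 14 genes of that list all *VP* tumors lay above all controls, as in 6.03% of all tested genes. *Ly6g*, *Csf3r* and *Mmp9* overlapped, with *Ly6g* at 96.3, 106 and 76.2 TPM in *Trp53*fl/fl tumors against 183, 90.9 and 72.6 TPM in *VP* tumors. Among the 11, *Ngp* was at 0.81, 0.21 and 0.62 TPM in *Trp53*fl/fl tumors against 48.4, 18.2 and 32.1 TPM in *VP* tumors, and *Camp* was listed at 0 in every *Trp53*fl/fl tumor. Both passed the filter only through the *VP* tumors. The part of neutrophils in the interleukin-1 family values was not tested.

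Among the remaining sensors, *Nlrp1b* was at 1.73, 2.02 and 1.17 TPM in *Trp53*fl/fl tumors, compared with 0.34, 0.60 and 0.64 TPM in *VP* tumors. It passed the filter only through the *Trp53*fl/fl tumors, so that its lower values in *VP* tumors are given as a description with no test. *Ifi204*, a DNA-binding relative of *Aim2*, was at 2.59 to 3.61 TPM in *Trp53*fl/fl tumors and 4.52 to 5.63 TPM in *VP* tumors (log2 difference 0.51, limma, adjusted p = 0.340). *Naip1* and *Naip2*, which recognize parts of bacterial secretion systems, had log2 differences of 0.03 and -0.09 (limma, adjusted p = 0.965 and 0.827), and *Naip2*, like *Aim2*, was lower in all *VP* tumors per 1000 TPM of epithelial markers. The interferon-inducible GTPases *Gbp3* and *Irgm1*, of families that act on microbes and their vacuoles, were at 5.83 to 9.24 and 31.3 to 42.9 TPM in *Trp53*fl/fl tumors against 10.9 to 19.5 and 46.6 to 86.2 TPM in *VP* tumors. Their log2 differences of 0.86 and 0.73 did not pass the test (limma, adjusted p = 0.301 and 0.340), and per 1000 TPM of epithelial markers both genes, and *Il1r2*, overlapped between the genotypes. A list of 10 interferon gamma-induced genes summed to between 205 and 277 TPM in *Trp53*fl/fl tumors and to 234, 561 and 361 TPM in *VP* tumors, with *VP* replicate 2 the highest, and its part in these values was not tested. *Txnip* and *Irf1*, the most abundant modulators, and *Gsdma*, the most abundant of the other gasdermins, had log2 differences of 0.23, 0.23 and -0.59 with intervals that spanned 0 (limma, adjusted p = 0.686, 0.672 and 0.564). Leaving out 1 tumor moved that of *Gsdma* between -0.18 (without *VP* replicate 2) and -0.95 (without *VP* replicate 3).

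**Figure D4:**
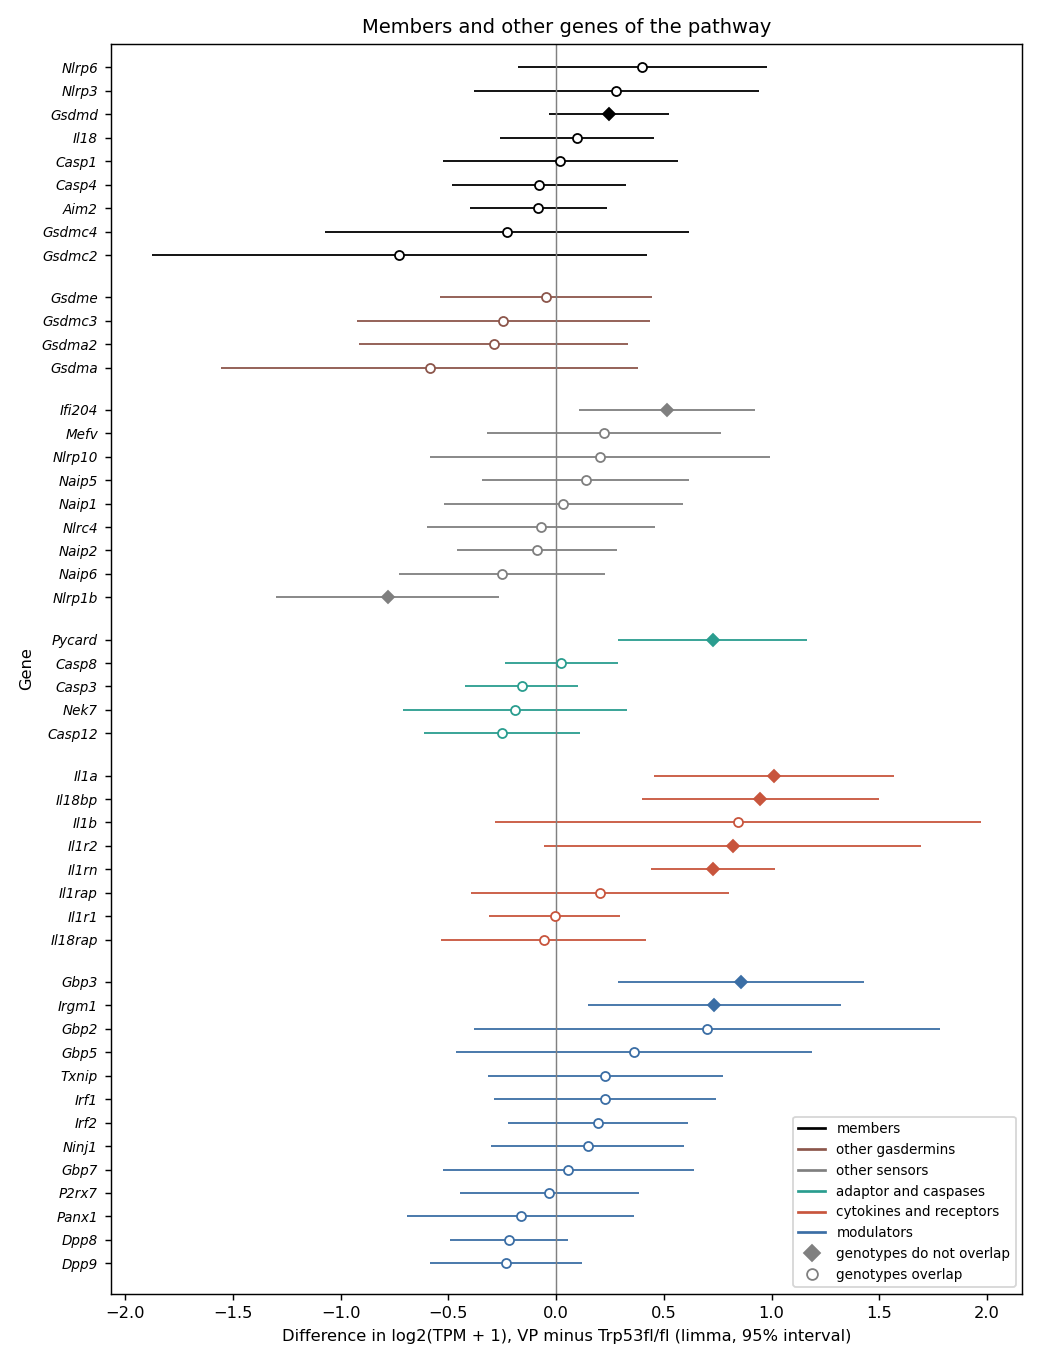
Difference in log2(TPM + 1) between *VP* and *Trp53*fl/fl tumors (horizontal axis) with its 95% interval from limma for the 9 tested members (black) and 39 other genes of the pathway, grouped and colored by role. Filled diamonds mark genes whose genotypes do not overlap, *Gsdmd* among the members and 9 among the others, and no gene shown passed the adjusted threshold. Among those 9, *Nlrp1b* passed the filter only through the *Trp53*fl/fl tumors and is shown as a description.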

How the data were processed

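Bulk RNA-seq of 6 tumors was analysed. Per the study's methods, poly(A) RNA libraries were sequenced as paired 150-base reads. The submitters' processing notes name HISAT2, StringTie and the mm9 build without roles or versions. The authors deposited one table of TPM per gene and tumor. Of its 54167 gene IDs, 52093 were in GENCODE M21 (GRCm38), used here for annotation only. The table gives no coordinates and no read counts.

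The 15117 genes that reached 1 TPM in 3 or more tumors were compared as log2(TPM + 1), pseudocount 1, with limma 3.58.1 (trend; R 4.3.3) and Benjamini-Hochberg adjustment, called below 0.05, as *VP* minus *Trp53*fl/fl. Differences understate changes of low genes. Promoter windows came from a RefSeq table that held 6 of the 10 members and were searched with Python 3.11.15. A gene of the pathway lists is not reported here. The members and lists were chosen with earlier results of these data known. Named were all members, *Trp53*, pathway genes with an unadjusted p below 0.05 or no overlap, the 2 most abundant tested genes of each pathway list, and the 5 genes closest to the gasdermin C sum. Alternatives were a pseudocount of 0.1, no filter, a filter on the mean (5 TPM), scaling by median-of-ratios, quantiles or epithelial markers, a replicate block, no trend and leaving out each tumor.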

Additional observations from a re-analysis of the deposited data

How the results depend on the processing

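None of the members and none of the pathway genes passed the adjusted threshold under any of the 14 alternatives, and 20 of the 32 named genes with a test kept their sign in all that tested them. 1 of the 9 members passed an unadjusted p below 0.05 in 4 of them: *Gsdmd*, higher with median-of-ratios scaling (as did 6.95% of all genes), *Nlrp3*, higher without *VP* replicate 1 (3.78%), *Nlrp6*, higher without *VP* replicate 3 (5.54%), and *Gsdmc2*, lower with the replicate block (6.78%). The count over all genes was 25 (12 higher, 13 lower), 45 (15 and 30) with centering on epithelial markers, 7 (4 and 3) with no filter, 10 (7 and 3) with the replicate block, 20 (12 and 8) with median-of-ratios scaling, and between 6 and 28 when a tumor was left out. *Trp53* lost its call with no filter (log2 difference -1.87, adjusted p = 0.105) and with the replicate block (log2 difference -1.87, adjusted p = 0.0883), where fewer degrees of freedom remain, and its difference lay between -2.02 and -1.74 without 1 tumor, losing its call without *Trp53*fl/fl replicate 1 or 3 or *VP* replicate 1 or 2 (adjusted p between 0.0553 and 0.0986). Same-numbered tumors did not deviate together (r = 0.019, -0.052 and 0.018), and not every tumor correlated best with its own number. The titles do not say that the numbers pair mice, and correlations over so few tumors cannot decide it. Centering on epithelial markers moved the median of all genes from -0.07 to -0.25 and turned the sign of *Casp1* (-0.15), *Il18* (-0.0771), *Casp8* (-0.15) and *Naip1* (-0.14). Leaving out 1 tumor gave ranges across 0 for *Aim2* (-0.16 to 0.0247), *Casp1* (-0.21 to 0.27), *Casp4* (-0.25 to 0.0579), *Gsdmc4* (-0.58 to 0.0755), *Il18* (-0.0193 to 0.23), *Gvin-ps1* (-0.53 to 0.0962), *Gvin-ps3* (-0.42 to 0.0293), *Gsdmc3* (-0.41 to 0.0656), *Casp8* (-0.0446 to 0.0743), *Naip1* (-0.12 to 0.31), *Naip2* (-0.17 to 0.0551) and *Txnip* (-0.0177 to 0.36). The cause of these changes was not tested. With 3 tumors of each genotype, an exact permutation test of 1 gene could not go below p = 0.1, and *Gsdmc* lay under the filter.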
